A study of Rattus norvegicus with 43 samples.

Results

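The 67 genes described here encode pre-mRNA splicing factors measured in the distal colon of rats fed 1 of 6 diets. They are all genes on the array whose symbol starts with Prpf, Srsf, Snrp, Sf3a, Sf3b, Hnrnp or Lsm followed, where the family is numbered, by a digit. Each gene is represented by the probe set with the highest mean over all 43 arrays. A rule on gene names, set with earlier results of these data known, took the members out of 14506 gene symbols. All 67 lay above the floor on low signal that left 10828 genes for testing. They comprised 17 Hnrnp, 12 Lsm, 11 Prpf, 11 Srsf, 8 Snrp, 5 Sf3b and 3 Sf3a genes.

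The 43 arrays, 1 per rat from the wording of the design text, fell into HAMSB (n = 9), HAMS (n = 8), HAW (n = 8), LAW (n = 6), LAMS (n = 7) and CON (n = 5). From what is known of the study, HAMSB is butyrylated high-amylose maize starch, HAMS high-amylose maize starch, HAW high-amylose wheat, LAW low-amylose wheat, LAMS low-amylose maize starch and CON the control diet. The series title gives the setting as a Western diet, and the 5 diets other than CON are read as Western-type diets that differ in their starch. The labels call the HAMS rats HAM. High-amylose starch resists digestion in the small intestine and is fermented by the bacteria of the large bowel, and butyrylated starch carries esterified butyrate there. All rats were of the Sprague Dawley strain and 11 weeks old, sex is not given in the sources used here, and the tissue was taken whole, so that each value averages epithelium, muscle, connective tissue and any lymphoid tissue in the piece. Fewer cells of a type and less RNA per cell cannot be told apart in such samples.

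Splicing removes introns from pre-mRNA in the spliceosome, which assembles anew on each intron from the U1, U2, U4, U5 and U6 small nuclear ribonucleoproteins (snRNPs). Snrp genes encode the Sm proteins that form the ring of most snRNPs and proteins particular to U1 and U2, and the Lsm proteins form the related ring around the end of U6 RNA as well as a cytoplasmic ring that takes part in mRNA decay. SF3a and SF3b are the parts of the U2 snRNP that hold the branch point, and Prpf genes encode mainly proteins of the U4/U6.U5 tri-snRNP and the catalytic centre. SR proteins (Srsf) bind exonic enhancers and in most contexts favour exon inclusion, while hnRNP proteins coat nascent RNA and often repress splice sites. The naming rule also takes in genes with other tasks, such as Lsm10 and Lsm11 of the U7 snRNP, which processes histone mRNA, and Lsm14a of cytoplasmic P-bodies.

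All values are log2 expression values as the authors deposited them, so that a difference of 1 is a 2-fold change. Differences between diets are given ± their standard error from limma, and a gene is said to rise, fall or change only where its p, adjusted by the Benjamini-Hochberg method over all 10828 genes, was under 0.05. Epithelial markers were present on every array, with Epcam between 10.34 and 11.53 and Krt8 between 11.70 and 12.66. The number of rats limits the precision: the 95% interval of a member reached a median of 0.23 to either side in HAMSB minus LAMS and 0.25 in HAW minus LAW.

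Several features of the arrays moved with diet and are given beside the results. The array names in the labels have 3 styles, and these were unevenly spread: names with the diet code first were used for 5 HAMSB, 8 HAMS, 3 HAW, 1 LAW and 3 LAMS arrays, lower-case names for 5 HAW, 5 LAW, 4 LAMS and 2 CON arrays, and names with the number first for 4 HAMSB and 3 CON arrays. What the styles stand for is not stated. The interquartile range of an array was lower in HAMS than in LAMS (means 3.01 and 3.21, exact two-sided permutation p = 0.00373, adjusted p = 0.0261 over 7 comparisons). HAW replicate 8 had the lowest interquartile range of the 43 arrays, 2.68. The mean level of a list of B cell and germinal centre genes, 11 of whose 20 genes were tested, is called the lymphoid level; it ran from 5.51 to 7.95 in HAMSB, 5.49 to 9.09 in HAMS, 5.48 to 8.69 in HAW, 5.39 to 8.49 in LAW, 5.42 to 8.49 in LAMS and 5.53 to 7.84 in CON. Among the other 9, Ms4a1 and Fcer2 lay below the floor on low signal, and the rest were not used here.

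In the limma F test over the 6 diets 19 of the 67 members passed, 28.4%, against 31.0% of all genes tested. With the name style as a block 14 members passed, against 12.9% of all genes. With the name style and the lymphoid level in the model 9 passed, against 5.18%. Style and diet are partly confounded. The 19 were 5 Hnrnp genes (Hnrnpc, Hnrnpf, Hnrnpk, Hnrnpm and Hnrnpu), 5 Lsm genes (Lsm3, Lsm4, Lsm5, Lsm6 and Lsm7), Prpf39, Prpf4b, Prpf6, Sf3b1, Sf3b3, Sf3b4, Snrpb2, Snrpd1 and Srsf12. The smallest adjusted p-values were 0.000796 for Lsm4 and 0.00341 for Lsm7. No Sf3a gene passed. The diet means of a member spanned between 0.06 and 0.99, with a median of 0.33, and the standard deviation among rats of one diet had a median of 0.229 over the members. The mean was lowest in HAMSB for 29 of the 67 members and highest in LAW for 21.

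**Figure D1:**
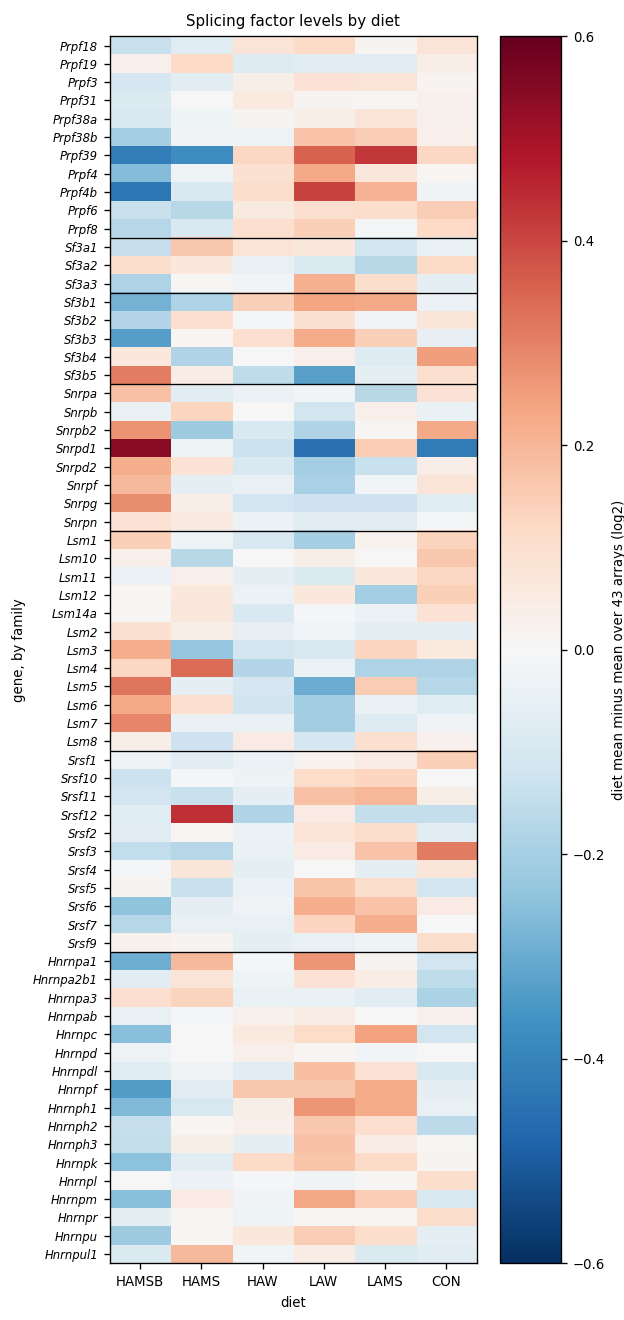
Diet means of the 67 splicing factor genes (rows, grouped by family) in the 6 diets (columns), each drawn as its difference from the gene's mean over 43 arrays on the log2 scale, red for higher and blue for lower. The HAMSB column is mainly blue in the Prpf, Srsf and Hnrnp rows and mainly red in the Snrp rows. HAMSB held the lowest mean of 29 of the 67 genes.

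When rats on the butyrylated starch were set against those on low-amylose starch (HAMSB minus LAMS), 10 members fell and 2 rose. This is 17.9% of the 67 members, against 6.84% of all genes tested; the 10 falls are 14.9% of the members, against 4.65% of all genes that fell and 2.20% that rose. The members were chosen with earlier results of these data known, so these shares are no independent evidence. The falls were in Prpf39, Prpf4b and Prpf6, in the SF3b subunits Sf3b1 and Sf3b3, and in Hnrnpc, Hnrnpf, Hnrnpk, Hnrnpm and Hnrnpu. The rises were in Lsm4 and Lsm7. With the name style as a block 6 members passed (3 higher, 3 lower), 5 of them among the 12, and among the arrays with the diet code first alone (5 HAMSB, 3 LAMS) 2 passed, 1 of them among the 12; without 1 array the count ran from 2 (without LAMS replicate 2) to 17 (without LAMS replicate 7). Of all genes tested 3.04% passed with the block and 0.351% among the arrays with the diet code first. Hnrnpc was the only 1 of the 12 to pass among those arrays.

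Prpf39, whose human protein associates with the U1 snRNP and helps recruit it to 5′ splice sites, showed the largest difference of any member. Its values ran from 5.83 through a median of 6.51 to 7.45 in the 9 HAMSB rats, against 6.88, 7.42 and 7.84 in the 7 LAMS rats. Thus 7 of the 9 HAMSB values lay below every LAMS value, and the ranges overlapped. The difference was -0.85 ± 0.22 (limma, adjusted p = 0.0173), and it was -0.65 with adjusted p = 0.0791 with the name style as a block. The call also ended without LAMS replicate 2 and without LAMS replicate 4 (adjusted p = 0.0568 and 0.0572).

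Prpf4b, the kinase that in human cells phosphorylates proteins of the tri-snRNP before it joins the spliceosome, ran from 6.86 through 7.68 to 8.28 in HAMSB, against 7.59, 8.23 and 8.74 in LAMS. All but 1 of the 9 HAMSB values lay below the LAMS median, while the ranges overlapped over a wide stretch. The difference was -0.64 ± 0.18 (limma, adjusted p = 0.0266), and with the name style as a block it was -0.45 with adjusted p = 0.106. The call ended in 7 of 16 fits without 1 array (largest adjusted p 0.0925). Prpf6, a protein that bridges the U5 and U4/U6 particles within the tri-snRNP, fell by 0.24 ± 0.08 (limma, adjusted p = 0.0497). That fall did not pass with the name style as a block, and its call was not examined without 1 array. Of the other 8 Prpf genes, all but Prpf19 had a negative difference; the family's median was -0.18, against 0.00 over all genes tested.

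In the SF3b complex 2 of 5 subunits fell. Sf3b1, the subunit that clamps the branch point and that is mutated in several human blood cancers, ran from 8.85 through 9.46 to 9.82 in HAMSB, against 9.34, 10.05 and 10.27 in LAMS. Every HAMSB value was below the LAMS median and 3 were below the lowest LAMS value. The difference was -0.51 ± 0.14 (limma, adjusted p = 0.0287), and with the name style as a block -0.32 with adjusted p = 0.115. Sf3b3, a scaffold subunit, ran from 7.90 through 8.37 to 8.86 in HAMSB, against 8.47, 8.84 and 9.33 in LAMS. The difference was -0.47 ± 0.13 (limma, adjusted p = 0.0287) with 6 of 9 HAMSB values below all LAMS values, and the block gave -0.41 with adjusted p = 0.0671. Without 1 array the call of Sf3b1 ended in 7 of 16 fits and that of Sf3b3 in 6 (largest adjusted p 0.0957 and 0.0979). The small subunit Sf3b5 had a difference of 0.36 and did not pass.

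Among the hnRNP genes 5 of 17 fell and none rose, and 15 of the 17 differences were negative, with a median of -0.19. Hnrnpc, which binds uridine tracts in nascent transcripts, had the smallest adjusted p among the members in HAMSB minus LAMS. Its values ran from 8.33 through 8.81 to 9.43 in HAMSB, against 9.18, 9.27 and 9.70 in LAMS. A single HAMSB rat, at 9.43, lay within the LAMS range and the other 8 lay below all of it. The difference was -0.49 ± 0.11 (limma, adjusted p = 0.00999), and it passed with the name style as a block (-0.57, adjusted p = 0.00851), within the style with the diet code first (-0.72, adjusted p = 0.0441) and without each array in turn (largest adjusted p 0.0326).

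Hnrnpf, which binds runs of guanines, ran from 10.02 through 10.36 to 10.94 in HAMSB, against 10.73, 11.11 and 11.42 in LAMS. Every HAMSB value was below the LAMS median and 5 were below all LAMS values. The difference was -0.55 ± 0.14 (limma, adjusted p = 0.0149), and the fall passed with the name style as a block (-0.47, adjusted p = 0.0144) but not without LAMS replicate 2 (adjusted p = 0.0560). A second probe set of Hnrnpf had a difference of -0.31 and correlated with the first at r = 0.70 within diets over the 43 arrays.

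Hnrnpk, a binder of cytosine-rich RNA and DNA, ran from 10.55 through 10.86 to 11.17 in HAMSB, against 10.96, 11.26 and 11.45 in LAMS. It fell by 0.36 ± 0.10 (limma, adjusted p = 0.0236), its second probe set gave -0.36 as well, and with the name style as a block it fell by 0.29 with adjusted p = 0.0248. The call of Hnrnpk ended in 6 of 16 fits without 1 array (largest adjusted p 0.0775). Hnrnpm fell by 0.39 ± 0.12 (limma, adjusted p = 0.0453), a call that ended in 9 of 16 such fits (largest adjusted p 0.127), as its F test call did in 6 of 43, and Hnrnpu, a large protein that also organises chromatin, fell by 0.32 ± 0.09 (limma, adjusted p = 0.0236). Neither Hnrnpm nor Hnrnpu passed with the name style as a block. For Hnrnpu this call was not examined without 1 array. Hnrnpd (-0.01 ± 0.11), Hnrnpl (-0.01 ± 0.09) and Hnrnpul1 (0.00 ± 0.12) differed least.

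**Figure D2:**
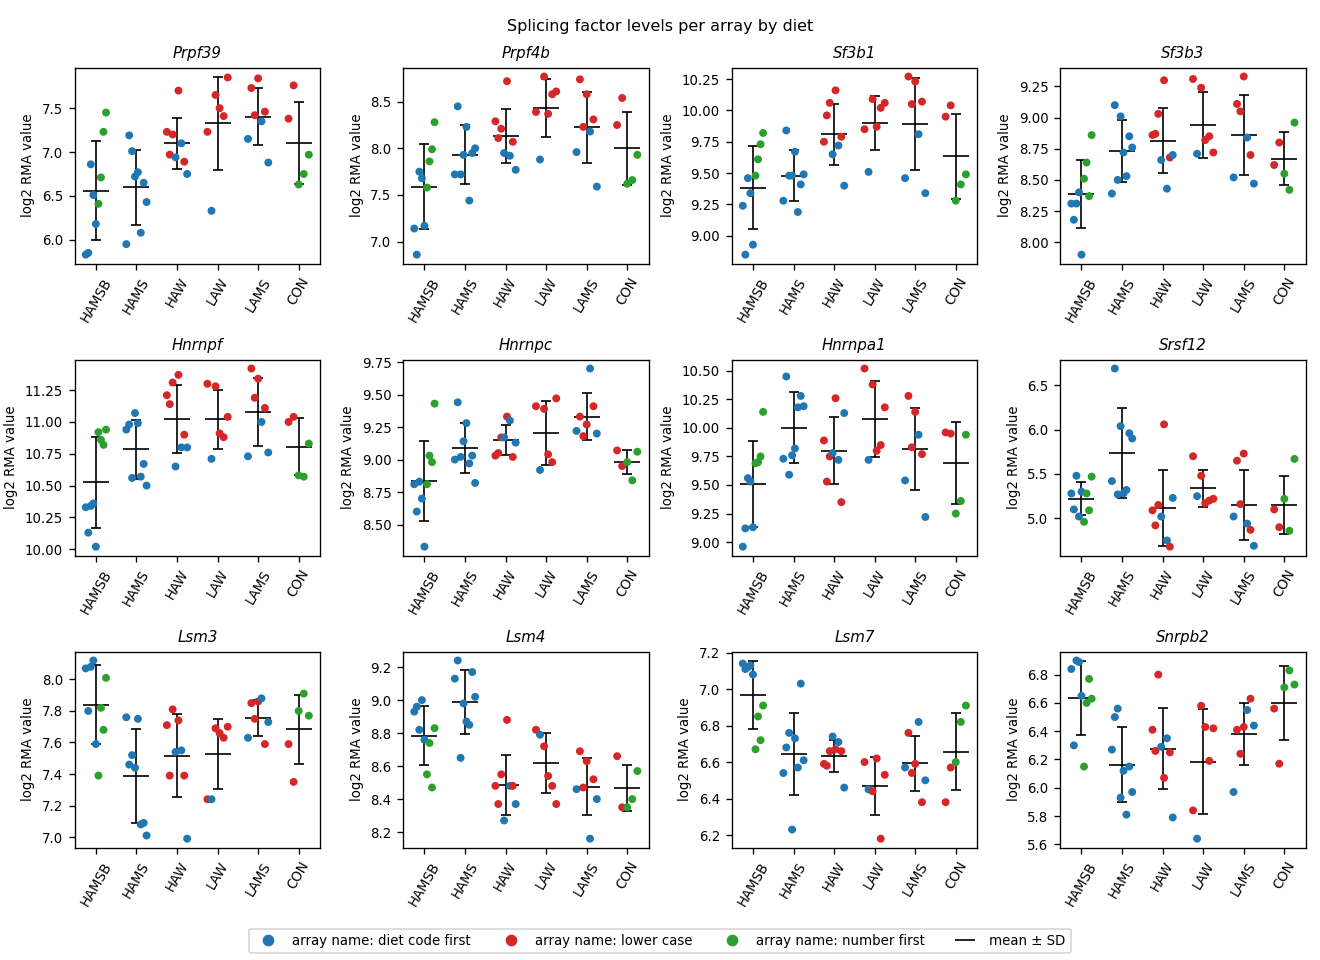
Log2 values of 12 splicing factor genes on each array (points, coloured by the style of the array name) in the 6 diets, with the mean and SD of each diet in black. Hnrnpc was below 9.18, the lowest LAMS value, in 8 of 9 HAMSB rats, and Lsm4 was highest in HAMS and next highest in HAMSB.

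The SR protein genes did not pass in HAMSB minus LAMS, though 8 of 11 differences were negative and their median was -0.18. The lowest was that of Srsf6, -0.41 ± 0.14 with adjusted p = 0.0661 in limma; at unadjusted p under 0.05, 4 of the 11 would have been counted. So would 2837 of all 10828 genes tested. With each array centred on its median, Srsf6 passed (-0.37, adjusted p = 0.0492).

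Most Snrp genes had differences of the opposite sign. The 8 Snrp genes had a median difference of 0.30, against 0.00 over all genes tested, with 7 of 8 positive, and none passed the limma test; 2 had an unadjusted p under 0.05. Over all 10828 genes tested 2837 did. Snrpg, an Sm ring protein, differed by 0.39 ± 0.13 (limma, adjusted p = 0.0555) and Snrpa, the U1 A protein, by 0.34 ± 0.12 (limma, adjusted p = 0.0653). With the name style as a block the difference was 0.09 for Snrpg, 0.09 for Snrpa and 0.44 for Snrpd1. For Snrpf, an Sm ring protein, it turned to -0.50 (limma, adjusted p = 0.0653), against 0.21 without the block. Snrpd1, another Sm ring protein, passed the F test over all diets (limma, adjusted p = 0.0255), though not in 3 of 43 fits without 1 array; its values ran from 8.39 through 9.20 to 9.68 in HAMSB, 7.84 through 8.49 to 9.14 in HAMS, 7.61 through 8.46 to 9.13 in HAW, 6.89 through 8.56 to 8.83 in LAW and 8.49 through 8.79 to 9.12 in LAMS, and were 8.53, 6.93, 8.66, 8.84 and 7.99 in CON. Its lowest values were in a LAW and a CON rat, the diets overlapped, and Snrpd1 had the widest range of diet means among the members, 0.99.

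The Lsm genes held both rises. Lsm7, a subunit of both the U6 ring and the cytoplasmic decay ring, ran from 6.67 through 7.08 to 7.14 in HAMSB, against 6.38, 6.57 and 6.82 in LAMS. Every HAMSB value was above the LAMS median and 7 of 9 were above all LAMS values. The difference was 0.37 ± 0.09 (limma, adjusted p = 0.0142), and 0.38 with the name style as a block (adjusted p = 0.0354). Lsm4, a subunit of the same rings, ran from 8.47 through 8.82 to 9.00 in HAMSB, against 8.16, 8.47 and 8.69 in LAMS, a difference of 0.31 ± 0.09 (limma, adjusted p = 0.0382). It was 0.43 with the name style as a block (adjusted p = 0.0208), and the call ended in 10 of 16 fits without 1 array (largest adjusted p 0.0816). The median over the 12 Lsm genes was 0.13, with 10 positive.

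**Figure D3:**
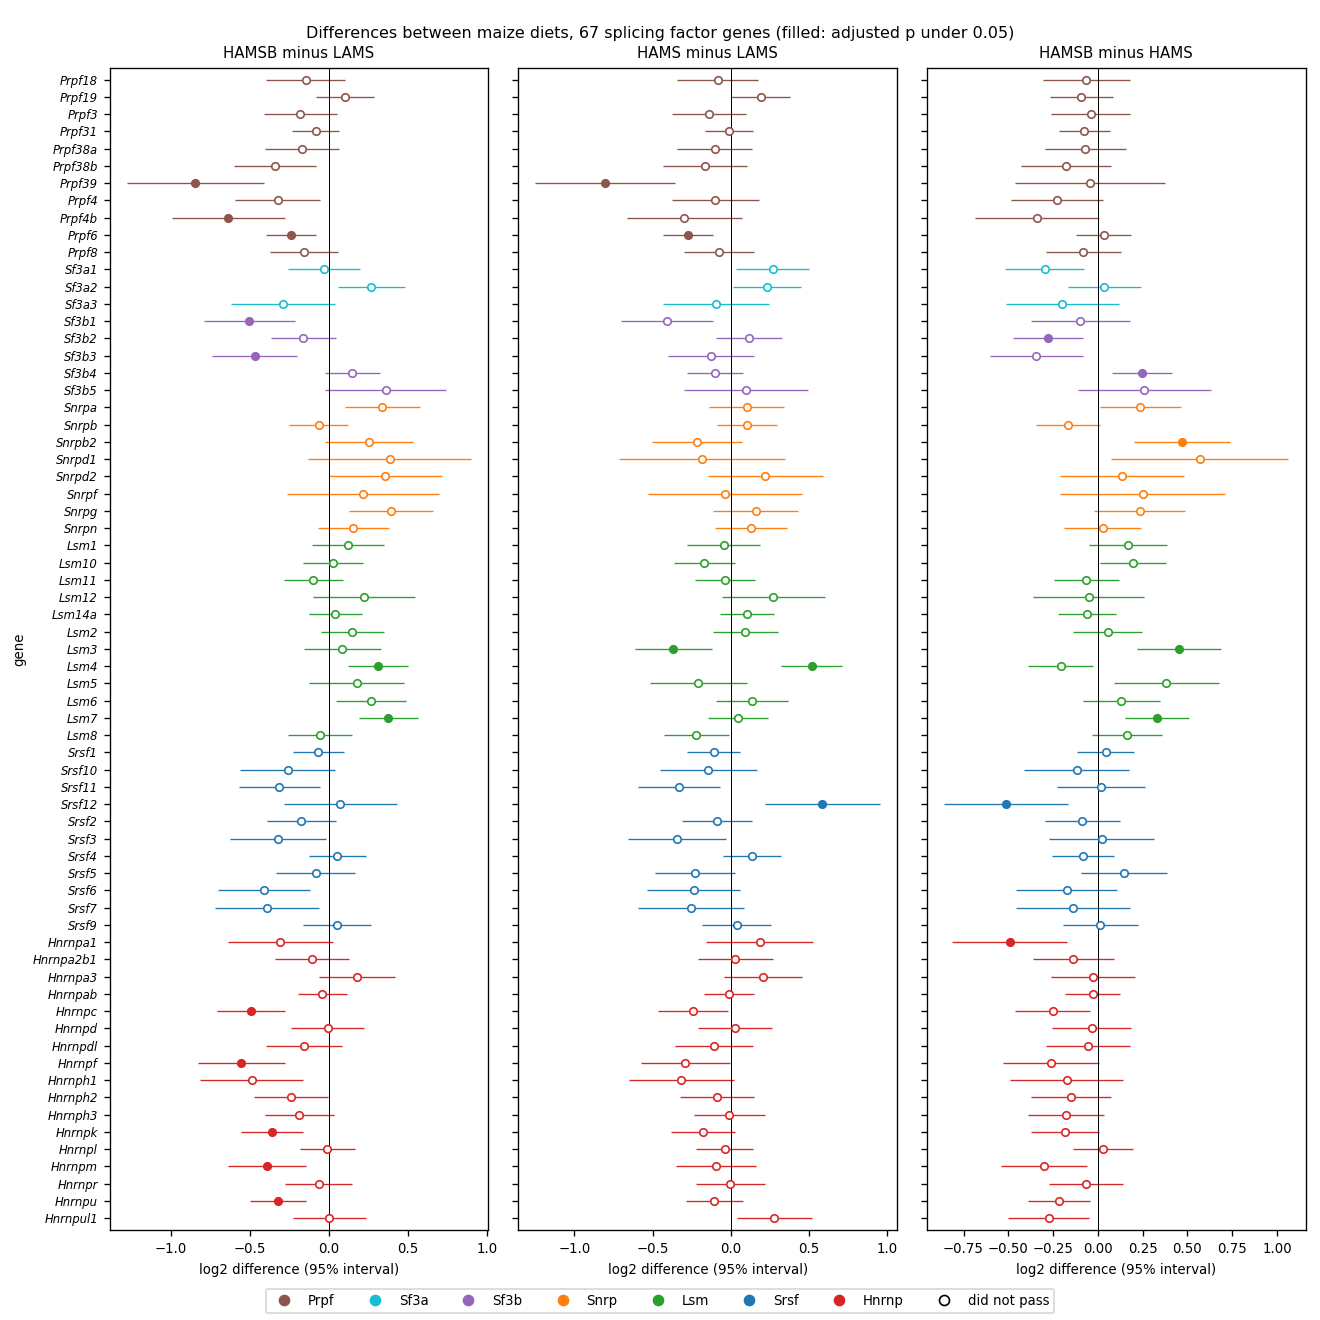
Log2 differences with 95% intervals from limma for the 67 genes (rows, coloured by family) in HAMSB minus LAMS, HAMS minus LAMS and HAMSB minus HAMS. Filled points passed at an adjusted p under 0.05: 12, 5 and 7 of the 67.

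With the plain high-amylose maize starch (HAMS minus LAMS), 2 members rose and 3 fell. This is 7.46% of the members, against 14.2% of all genes tested, of which 2.13% rose and 12.1% fell. The rises were in Lsm4 and Srsf12 and the falls in Prpf39, Prpf6 and Lsm3. Lsm4 ran from 8.65 through 9.00 to 9.24 in HAMS, against 8.16, 8.47 and 8.69 in LAMS, and 7 of 8 HAMS values lay above every LAMS value. The difference was 0.52 ± 0.10 (limma, adjusted p = 0.00405), and it passed with the name style as a block (0.56, adjusted p = 0.00174), with the lymphoid level added to the model (0.43, adjusted p = 0.0119) and without each array in turn. Over all genes tested the median difference was -0.09, and centring each array on its median shifted it by 0.11, to 0.02; relative to that shift the split among the members was 6 rises (Hnrnpul1, Lsm4, Sf3a1, Sf3a2, Srsf12 and Srsf4) and 1 fall (Prpf39), while 931 of 10828 genes passed, 49.6% of them higher. The count of 5 was 8 with the name style as a block (8.79% of all genes) and 8 within 1 style (11.3%). It ran from 2 (without LAMS replicate 6) to 9 (without HAMS replicate 5) without 1 array.

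Prpf39 also fell in HAMS: it ran from 5.95 through 6.68 to 7.19 in HAMS, against the LAMS values given above, with all 8 HAMS values below the LAMS median. The difference was -0.80 ± 0.22 (limma, adjusted p = 0.0179), and -0.42 with adjusted p = 0.166 with the name style as a block; all 8 HAMS arrays have names with the diet code first. Prpf6 ran from 8.61 through 8.89 to 9.11 in HAMS, against 9.06, 9.18 and 9.38 in LAMS. It fell by 0.27 ± 0.08 (limma, adjusted p = 0.0237), and its difference was -0.17 with each array centred (adjusted p = 0.0806) and -0.15 with the name style as a block (adjusted p = 0.161), and the call ended without HAMS replicate 6 and without LAMS replicate 6 (largest adjusted p 0.0659). Lsm3, a subunit of the same rings as Lsm4, ran from 7.01 through 7.45 to 7.76 in HAMS, against 7.59, 7.75 and 7.88 in LAMS, a fall of 0.37 ± 0.12 (limma, adjusted p = 0.0411). Its call ended with centring (-0.26, adjusted p = 0.101), with the name style as a block (-0.33, adjusted p = 0.108) and in 11 of 15 fits without 1 array.

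Srsf12, an SR-related protein that in human cells opposes the activity of classical SR proteins, ran from 5.27 through 5.66 to 6.69 in HAMS, against 4.69, 5.02 and 5.73 in LAMS. All 8 HAMS values lay above the LAMS median and 4 lay above every LAMS value. The difference was 0.58 ± 0.18 (limma, adjusted p = 0.0306). That call ended in 8 of 15 fits without 1 array (0.45, adjusted p = 0.0812 without HAMS replicate 2), and its F test call in 12 of 43 (largest adjusted p 0.138). Its level moved with the lymphoid level of the array, and with that level as a covariate the difference was 0.31 with adjusted p = 0.102. Its values lay near the floor on low signal, 4.79, and 1 of 7 LAMS values was below it.

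Between the butyrylated and the plain high-amylose maize starch, HAMSB minus HAMS, 4 members rose (Lsm3, Lsm7, Snrpb2 and Sf3b4) and 3 fell (Hnrnpa1, Srsf12 and Sf3b2), 10.4% of the members against 17% of all genes tested, of which 14.5% rose and 2.58% fell. The count of 7 was 21 with the name style as a block (5 higher, 16 lower, 30.8% of all genes), 16 within the style with the diet code first (22.2% of all genes), and ran from 3 (without HAMS replicate 8) to 12 (without HAMSB replicate 9) without 1 array. Lsm3 ran from 7.39 through 7.82 to 8.12 in HAMSB, against 7.01, 7.45 and 7.76 in HAMS, and the difference was 0.45 ± 0.12 (limma, adjusted p = 0.00808). Lsm7 ran from 6.67 through 7.08 to 7.14 in HAMSB, against 6.23, 6.64 and 7.03 in HAMS, with every HAMSB value above the HAMS median and a difference of 0.33 ± 0.09 (limma, adjusted p = 0.0113). Both rises passed with the name style as a block, within the style with the diet code first and without each array in turn.

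Snrpb2, the U2 B″ protein that binds a stem-loop of U2 RNA, ran from 6.15 through 6.65 to 6.90 in HAMSB, against 5.81, 6.13 and 6.56 in HAMS. It rose by 0.47 ± 0.13 (limma, adjusted p = 0.0145), and 7 of 9 HAMSB values lay above all HAMS values. In the remaining diets Snrpb2 ran from 5.79 through 6.27 to 6.80 in HAW, 5.64 through 6.31 to 6.58 in LAW and 5.97 through 6.43 to 6.63 in LAMS, and was 6.56, 6.17, 6.71, 6.83 and 6.73 in CON. All 5 CON values thus lay within the HAMSB range. Sf3b4, the SF3b subunit that contacts RNA upstream of the branch point, rose by 0.25 ± 0.08 (limma, adjusted p = 0.0353), and its difference was 0.19 with each array centred (adjusted p = 0.0955); the call ended in 7 of 17 fits without 1 array.

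Hnrnpa1, a repressor of many exons, ran from 8.96 through a median of 9.56 to 10.14 in HAMSB, against 9.73, 10.45, 9.59, 9.76, 9.82, 10.18, 10.28 and 10.19 in HAMS. In HAMSB 5 of 9 values lay below all HAMS values. The difference was -0.49 ± 0.16 (limma, adjusted p = 0.0302), and both other probe sets of the gene gave -0.45 and -0.41. Srsf12 fell by 0.51 ± 0.17 (limma, adjusted p = 0.0353) and Sf3b2 by 0.28 ± 0.10 (limma, adjusted p = 0.0435). Without 1 array the call ended in 7 of 17 fits for Hnrnpa1, 8 for Srsf12 and 11 for Sf3b2 (largest adjusted p 0.0896, 0.127 and 0.121). With the lymphoid level in the model, Lsm7 alone of the 7 passed (adjusted p = 0.0429), and the difference of Hnrnpa1 was -0.22 with adjusted p = 0.413. Of all genes tested 1.91% passed in that fit, against 17% without the lymphoid level. The hnRNP genes as a family had 16 of 17 differences below 0, with a median of -0.17 against 0.07 over all genes, and 1 of 17 passed; with each array centred on its median 6 of 17 passed, all lower, and among all members that passed 3 were higher and 11 lower, while 1647 of 10828 genes passed, 56% of them higher.

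Among the wheat diets and against the control, no member passed in 3 comparisons. In HAW minus LAW limma called 0 of 67 members (0% of all genes) and 0 members had an unadjusted p under 0.05; the smallest was 0.0585 for Hnrnph3, which differed by -0.23. Of all 10828 genes tested 209 had an unadjusted p under 0.05 there. In LAMS minus CON limma called 0 members (0% of all genes), with the smallest adjusted p 0.243 for Sf3b4 (-0.33). With array weights 1 member was called. Those weights called 2.27% of all genes. In LAW minus LAMS limma called 0 members (0% of all genes). The smallest unadjusted limma p-values were 0.00932 for Lsm5 (-0.45) and 0.0370 for Snrpd1 (-0.61), both with adjusted p = 0.9998. A member's 95% interval reached a median of 0.27 to either side in LAMS minus CON and 0.26 in LAW minus LAMS.

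Hnrnpc was the only member whose arrays did not overlap between 2 compared diets. All 7 LAMS values, 9.18 to 9.70, were above all 5 CON values, 9.07, 8.95, 8.98, 8.84 and 9.06. Of all genes tested 0.111% separated in this direction in LAMS minus CON and 1.10% in the other, and the limma difference of 0.35 ± 0.12 did not pass (adjusted p = 0.328). In HAMSB, as given above, Hnrnpc lay at 8.33 to 9.43, so that its CON values were within the HAMSB range. HAMSB minus LAMS and LAMS minus CON share the LAMS arrays. In the other 6 comparisons 0 members separated. Of all genes, those that separated upward and downward were 0.120% and 0.591% in HAMS minus LAMS, 0.0924% and 0.453% in HAMSB minus LAMS, 0.462% and 0.0185% in HAMSB minus HAMS, 0.00924% and 0.00924% in HAW minus LAW, 0.0185% and 0.00924% in LAW minus LAMS, and 0.0831% and 0.0462% in HAW minus HAMS.

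Between the high-amylose grains, HAW minus HAMS, 2 members fell and none rose, 2.99% of the members against 13.3% of all genes tested, of which 11.0% rose and 2.33% fell. Lsm4 ran from 8.27 through 8.48 to 8.88 in HAW, against 8.65, 9.00 and 9.24 in HAMS, and 7 of 8 HAW values lay below every HAMS value. The difference was -0.51 ± 0.09 (limma, adjusted p = 0.00307), and the fall passed with the name style as a block and without each array in turn. It did not pass among the arrays with the diet code first (3 HAW, 8 HAMS). There 0 members passed, against 0.0646% of all genes. Srsf12 ran from 4.68 through 5.05 to 6.06 in HAW, against 5.27, 5.66 and 6.69 in HAMS, a fall of 0.62 ± 0.18 (limma, adjusted p = 0.0200) that did not pass with the lymphoid level added to the model (-0.34, adjusted p = 0.0848) or without HAMS replicate 2 (adjusted p = 0.0625). Without HAW replicate 8, the array of lowest spread, 4 members passed.

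Lsm4 also came nearest to a difference between the grains in the effect of amylose. Its HAW minus LAW difference less its HAMS minus LAMS difference was -0.65 ± 0.14 (limma, adjusted p = 0.0743); LAW values ran from 8.37 through 8.63 to 8.82, and CON values were 8.66, 8.35, 8.35, 8.40 and 8.57. In that test 0 of 67 members passed, against 0.0277% of all genes (0.00924% higher, 0.0185% lower), and Lsm4 passed in 8 of 29 fits without 1 array. Ordered by mean, the Lsm4 levels were 8.99 ± 0.19 in HAMS, 8.78 ± 0.18 in HAMSB, 8.62 ± 0.18 in LAW, 8.48 ± 0.18 in HAW, 8.47 ± 0.17 in LAMS and 8.47 ± 0.14 in CON (SD, n as above). The step between HAMSB and HAMS, -0.21, did not pass (limma, adjusted p = 0.0954) and passed with each array centred (-0.27, adjusted p = 0.0407).

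Within diets many members were higher where the lymphoid level was higher. With diet in the model, 30 of 67 members rose with the lymphoid level and 0 fell, 44.8% and 0%, against 53.9% of all genes tested, of which 18.5% rose and 35.5% fell. They were 10 of 17 Hnrnp, 7 of 11 Srsf, 6 of 11 Prpf, 3 of 3 Sf3a, 2 of 5 Sf3b, 2 of 12 Lsm and 0 of 8 Snrp genes. The largest slopes, per unit of the log2 lymphoid level, were 0.23 ± 0.03 for Srsf12, 0.20 ± 0.03 for Hnrnpa1, 0.17 ± 0.02 for Sf3b3, 0.15 ± 0.04 for Hnrnph1, 0.14 ± 0.04 for Sf3a3 and 0.14 ± 0.02 for Hnrnpd. With the name style as a block 22 rose and 0 fell. The share of all genes in that fit is not given here, so this count cannot be read as a trait of the members.

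The lymphoid level itself averaged 6.21 in HAMSB, 7.59 in HAMS, 6.38 in HAW, 6.56 in LAW, 6.43 in LAMS and 6.12 in CON. For HAMSB minus HAMS its difference had p = 0.0251 in an exact permutation test, two-sided (adjusted p = 0.176 over 7 comparisons), and for HAMSB minus LAMS p = 0.697 (exact, adjusted p = 0.854). The 12 calls of HAMSB minus LAMS were all kept with the lymphoid level as a covariate, where 18 members passed. Of all genes tested 13.6% passed with that covariate, against 6.84% without it. The mean of 12 T cell genes was 6.16 in HAMSB, 7.47 in HAMS and 6.38 in LAMS, and the mean of 16 epithelial genes was 10.82, 10.30 and 10.69 in the same diets. Whether cell content accounts for the differences of single members between diets was not tested beyond this covariate.

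**Figure D4:**
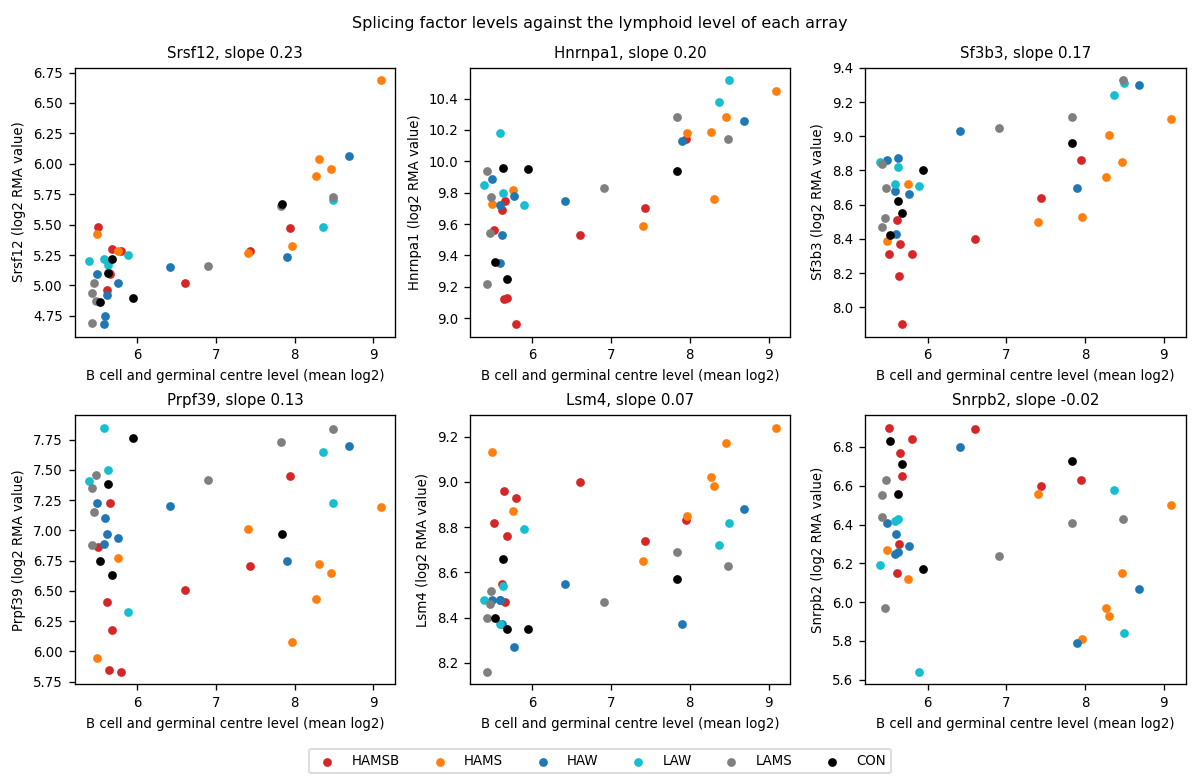
Log2 values of 6 splicing factor genes (vertical axes) against the mean log2 level of the B cell and germinal centre genes (horizontal axes) on 43 arrays, coloured by diet; each title gives the slope fitted with diet in the model. Srsf12 rises with a slope of 0.23 and Hnrnpa1 with 0.20, while Snrpb2 has a slope of -0.02.

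The members also differed with the style of the array names. With diet in the model 42 of 67 members differed among the styles, 62.7%, against 42.7% of all genes tested. Arrays with lower-case names exceeded those with the diet code first in 30 members and lay below them in 7, with a median difference of 0.20, against 0.06 over all genes. This is 55.2% of the members, 44.8% higher, against 44.9% of all genes, 28% higher. The largest positive differences were in Prpf39 (0.67 ± 0.16), Prpf4b (0.62 ± 0.12) and Sf3b1 (0.57 ± 0.09), which also fell in HAMSB minus LAMS. The largest negative ones were in Snrpf (-0.94 ± 0.12), Sf3b5 (-0.82 ± 0.11) and Snrpd2 (-0.72 ± 0.10), which did not pass in HAMSB minus LAMS. HAMSB and HAMS hold no lower-case array, while 4 of 7 LAMS arrays are of that style. Style and diet are thus partly confounded, and the fits with the name style as a block cannot fully tell them apart. The interquartile range of the array moved with 37 members (55.2%), against 50.7% of all genes; 34 of them rose with it and 3 fell, against 38.4% and 12.3% of all genes.

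**Figure D5:**
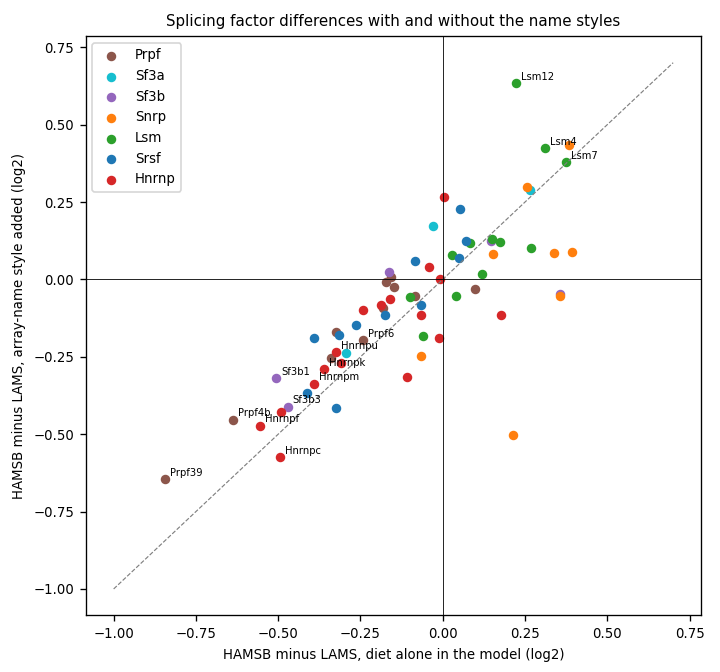
HAMSB minus LAMS differences of the 67 genes on the log2 scale with diet alone in the model (horizontal axis) and with the array-name style added (vertical axis), coloured by family; the dashed line marks equal values, and genes that passed in either fit are named. Hnrnpc lies beyond the line at -0.57 and Prpf39 moves to -0.65.

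Levels of the Hnrnp, Srsf and Prpf genes tended to vary together. As Pearson correlations of diet-centred values over the 43 arrays, the median over gene pairs was 0.46 within Hnrnp, 0.50 within Srsf and 0.46 within Prpf, and 0.42 to 0.50 between these families. Between them and the Snrp genes it was -0.06 to -0.11, and within Snrp it was 0.18. Single pairs ran from -0.48 to 0.93 within Hnrnp, -0.04 to 0.84 within Srsf and -0.37 to 0.90 within Prpf. Sf3a was alike, with medians of 0.46 within it, 0.45 with Srsf, 0.39 with Prpf and 0.35 with Hnrnp. For Sf3b the medians were 0.14 within it and 0.27 to 0.39 with Hnrnp, Srsf and Prpf. The median over pairs of all genes was not computed. The arrays share the style, spread and lymphoid differences given above. The closest pairs of members were Prpf4b with Sf3b1 and Hnrnpf with Hnrnpk, both at r = 0.93, and Prpf39 with Prpf4b at r = 0.90. Zc3h7a was the gene most like Prpf4b (r = 0.95) and Prpf39 (r = 0.90), Heatr1 that most like Sf3b3 (r = 0.93), Cct8 that most like Hnrnpc (r = 0.79), Rpl8 that most like Lsm4 (r = 0.74), Bcas2 that most like Snrpb2 (r = 0.74), and Calhm6 and Il10ra those most like Srsf12 (r = 0.88 each).

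Some members cannot be measured without doubt on an array. RefSeq lists 134 named pseudogenes for 31 of the 67 members, 51 of them for Hnrnpa1, and probe sets of such genes could also bind transcripts of a close copy. Of the 7 members with several probe sets, Hnrnpa1, Hnrnpa3 and Hnrnpk gave alike values (r of 0.92 to 0.99 with the probe set used), whereas the second probe sets of Hnrnpa2b1, Lsm5 and Prpf18 correlated at 0.43 to 0.51. In Hnrnpa2b1 the HAMSB minus LAMS difference was -0.11 with the probe set used and -0.41 with the other.

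Other genes of the splicing machinery, 126 in 8 lists of which 111 were tested, followed the falls of HAMSB minus LAMS: 15 fell and 0 rose, against the 4.65% of all genes that fell. The lists were drawn up with results of these data known, and the count supports nothing beyond itself. Unlike the members, these 111 genes were not examined in any comparison with the name style as a block, within 1 style or without 1 array. Among SR-like proteins, Rbm39 fell by 0.66 ± 0.16 (limma, adjusted p = 0.0141), Luc7l by 0.64 ± 0.17 (limma, adjusted p = 0.0221) and Tra2a by 0.41 ± 0.13 (limma, adjusted p = 0.0491). Clk4, a kinase of SR proteins, fell by 0.76 ± 0.23 (limma, adjusted p = 0.0408). The others were Crnkl1, the helicase genes Ddx23 and Ddx42, Cdc40, Tgs1, and the regulators Elavl1, Sfpq, Ptbp2 and Tia1. The remaining 2, Matr3 and Rbm5, are beyond the 4 genes per list that the naming rule allows and were named after their values were seen.

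In HAMS minus LAMS 7 of the 111 fell and 0 rose, among them the epithelial splicing regulators Esrp1 (-0.46 ± 0.16) and Esrp2 (-0.44 ± 0.15), Rbfox2 (-0.45 ± 0.14) and Magoh (-0.55 ± 0.17), a core protein of the exon junction complex; of all genes tested 12.1% fell and 2.13% rose. In HAMSB minus HAMS 7 rose and 3 fell: Esrp1 rose by 0.51 ± 0.15 (limma, adjusted p = 0.0181), Esrp2 by 0.52 ± 0.14 (limma, adjusted p = 0.0112), Rbfox2 by 0.39 ± 0.13 (limma, adjusted p = 0.0382), and Sfpq, Ptbp3 and Isy1 fell; of all genes 14.5% rose and 2.58% fell. In HAW minus HAMS 5 rose and 1 fell, with Esrp1 at 0.53 ± 0.15 and Esrp2 at 0.45 ± 0.14 among the rises; of all genes 11.0% rose and 2.33% fell. The comparisons share the HAMS arrays, on which the mean of the epithelial genes was the lowest of the 6 diets.

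Promoters are shown for members that passed in HAMSB minus LAMS and whose 120 bases before the RefSeq start lie outside the gene's own annotated span, so that genes that fell can be set beside one that rose. They are read from RefSeq on rat GRCr8, 5′ to 3′ on the gene's strand, with matches to the searched motifs in capitals. Hnrnpf lies on the plus strand at chr4:152755548-152755667, Hnrnpm on the minus strand at chr7:15178872-15178991, Hnrnpu on the minus strand at chr13:92618581-92618700, Prpf6 on the plus strand at chr3:189084345-189084464 and Lsm7, the gene that rose, on the plus strand at chr7:9507253-9507372.
Hnrnpf: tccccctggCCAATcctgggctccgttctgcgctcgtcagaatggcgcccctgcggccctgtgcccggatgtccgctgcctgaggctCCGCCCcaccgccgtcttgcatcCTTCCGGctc
Hnrnpm: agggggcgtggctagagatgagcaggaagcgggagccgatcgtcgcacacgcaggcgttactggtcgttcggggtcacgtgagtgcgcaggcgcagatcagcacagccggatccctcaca
Hnrnpu: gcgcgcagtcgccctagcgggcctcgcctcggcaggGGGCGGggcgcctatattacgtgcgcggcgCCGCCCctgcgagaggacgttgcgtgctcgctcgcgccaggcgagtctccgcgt
Prpf6: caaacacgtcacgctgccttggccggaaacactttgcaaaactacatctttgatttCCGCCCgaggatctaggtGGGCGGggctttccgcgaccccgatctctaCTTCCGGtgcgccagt
Lsm7: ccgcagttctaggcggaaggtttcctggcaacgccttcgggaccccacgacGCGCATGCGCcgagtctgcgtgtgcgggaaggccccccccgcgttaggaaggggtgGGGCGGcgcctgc

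The motifs searched on both strands were the GC box GGGCGG, the ETS motif CCGGAAG, the palindromic NRF1 motif, the YY1 motif AAGATGGCG, the CCAAT box CCAAT and the TATA box TATAAA, none of which contains another. Over the 300 bases from 250 before to 50 after the start, 64 of the 67 members had a promoter in the table. A GC box was present in 64.1% of these, against 34.9% of 27457 RefSeq promoters of the same length, an ETS motif in 28.1% against 9.22%, a CCAAT box in 53.1% against 37.7%, and a TATA box in 9.38% against 14.3%. CpG dinucleotides numbered a median of 24 per member promoter and 7 per promoter overall. Among the 10 members that fell in HAMSB minus LAMS, 7 held a GC box, 6 a CCAAT box and 2 an ETS motif, while of the promoters of Lsm4 and Lsm7, which rose, 1 held a GC box and neither a CCAAT box. These matches describe letters in the windows and were not tested against the differences between diets.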

How the data were processed

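RNA of rat distal colon was measured on 43 Affymetrix arrays. The deposited values are log2 intensities, which the authors made by RMA, per the submitters' processing notes; their RMA version is not given in the sources used here. They range from 1.31 to 14.05, with array medians of 5.62 to 5.82. RMA normalization sets values relative to all probes, so a shift common to all genes cannot be seen.

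Of 29214 probe sets, 15310 had 1 gene symbol in the platform annotation, 323 several and 13581 none. The probe set with the highest mean stood for each of 14506 symbols, and genes with a median under 4.79, the 25th percentile, were left out, which kept 10828. All 43 arrays entered 1 limma fit (limma 3.58.1, R 4.3.3; lmFit and eBayes) with a mean per diet, and p-values were adjusted by Benjamini-Hochberg over all genes. The fit was tested on simulated data. Marker levels were compared by exact permutation tests (scipy 1.17.1). The p-values measure the spread between rats. Alternatives were array weights, centring, name style, number range, replicate number, lymphoid level and array spread in the model, other probe set and filter rules, and leaving out each array.

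The members and lists were chosen with earlier results of these data known. Named were the members that passed, at most 8 in each direction, and up to 5 by smallest p where fewer than 5 passed; of the other splicing genes, at most 4 per list and comparison. Prpf6 and Hnrnpu in HAMSB minus LAMS, Snrpg, Snrpa, Srsf6, Snrpf, Snrpd2 and Sf3b5 were named after their values were seen.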

Additional observations from a re-analysis of the deposited data

Results flagged for a closer look

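Within-diet spread was examined in 132 groups of 5 to 9 rats, and in 9 of them 1 rat stood far from the rest; chance gives about 5%. HAW replicate 5 was high for Lsm4 (8.88, next 8.55) and for Srsf12 (6.06, next 5.23). LAMS replicate 7 was high for Lsm5 (7.02, next 6.54). Prpf6 was low in HAW replicate 8 (8.80, next 9.05) and in LAW replicate 2 (8.92, next 9.18), and Sf3b2 was low in HAMS replicate 5 (8.22, next 8.60). CON replicate 5 had a lymphoid level of 7.84, with the next CON rat at 5.95. The array interquartile range was low in HAMSB replicate 5 (2.95, next 3.07) and HAW replicate 8 (2.68, next 3.12).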

How the results depend on the processing

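Counts of members that passed moved with the model more than with the probe set rule, the low-signal filter or a trended robust prior, which kept every count within 1.5 times. With array weights the counts were 40 in the F test over 6 diets, 11 in HAMS minus LAMS, 28 in HAMSB minus LAMS, 14 in HAMSB minus HAMS, 1 in LAMS minus CON, 10 in HAW minus HAMS and 2 for the test of grain against amylose (HAW minus LAW less HAMS minus LAMS). In the same order, array weights called 69.3%, 37.4%, 34.5%, 35.1%, 2.27%, 43.7% and 10.5% of all genes tested. With the name style as a block they were 8 in HAMS minus LAMS, 6 in HAMSB minus LAMS, 21 in HAMSB minus HAMS, 7 in HAW minus HAMS and 1 for that of grain against amylose, and within 1 style 8, 2, 16 and 0 in the first 4 of these. The shares of all genes were 8.79%, 3.04%, 30.8%, 7.43% and 0.462% with the block. Within 1 style they were 11.3%, 0.351%, 22.2% and 0.0646%. Name style with the lymphoid level gave 9 in the F test, 4 in HAMSB minus HAMS, 1 in LAMS minus CON and 1 for that of grain against amylose. Of all genes 5.18%, 4.57%, 1.32% and 0.268% passed in these fits. The lymphoid level alone gave 1 in HAMSB minus HAMS and 1 in HAW minus HAMS (1.91% and 3.24% of all genes). Array spread gave 1 in HAMS minus LAMS, 1 in HAW minus HAMS and 18 in HAMSB minus HAMS (0.0554%, 0.222% and 23%). With array spread 25 members followed the name style in place of 42. The share of all genes in that fit is not given here, so the drop cannot be read as particular to the members. Centring gave 14 in HAMSB minus HAMS, 4 in HAW minus HAMS and 1 for that of grain against amylose (15.2%, 9.09% and 0.0369% of all genes). Number range as a block gave 1 for that of grain against amylose (0.0369%). The cause of these moves was not tested. Sf3b1 in HAW minus HAMS, 0.33 and not called, was -0.0256 with the name style as a block.

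The replicate numbers were not read as pairs of rats. Correlations of deviations between equal numbers had a median of 0.344 in HAMS minus LAMS (-0.283 to 0.627). The median was -0.059 in HAW minus HAMS (-0.651 to 0.45) and -0.301 to 0.11 in the other comparisons. As a replicate block the numbers gave 19 in the F test, 13 in HAMSB minus LAMS and 2 in HAMS minus LAMS (23.8%, 7.72% and 5.57% of all genes). They gave 2 in HAW minus HAMS and 12 in HAMSB minus HAMS (9.6% and 21.4%). Without 1 array the counts ran from 17 to 25 in the F test, 2 to 9 in HAMS minus LAMS (2 without LAMS replicate 6, 9 without HAMS replicate 5), 2 to 17 in HAMSB minus LAMS, 3 to 12 in HAMSB minus HAMS (3 without HAMS replicate 8, 12 without HAMSB replicate 9), 1 to 4 in HAW minus HAMS and 0 to 1 for that of grain against amylose.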
